A study of Mus musculus with 12 samples.

Results

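The regions described here were 2758 of the 107627 chromatin accessibility peaks (2.563%) measured in NeuN+ nuclei. They were chosen by their NeuN+ values, where the lower of the 2 SgshKO values was at least 10 normalized tags and at least 2 times the higher of the 2 wild-type (WT) values. A normalized tag is a sequenced read scaled so that each library totals 10000000. The choice used the values of all 4 NeuN+ libraries, so the NeuN+ values of these opened peaks are given as a description and carry no test. The assay was ATAC-seq, which uses a transposase to cut and tag open DNA, on forebrains of C57BL/6 mice at 4 months of age. SgshKO mice lack Sgsh, which encodes a lysosomal enzyme that degrades heparan sulfate. The labels give no type of allele for SgshKO and no further allele or agent. Nuclei were lightly fixed with formaldehyde and sorted as negative for PU.1 and OLIG2 and positive for NEUN. Olig2+ nuclei (PU.1 and NEUN negative) and live-sorted microglia (CD11b+, CX3CR1+, low CD45) of the same genotypes and age gave 2 further peak tables. Each of the 6 groups had n = 2 libraries, and nothing in the labels says whether they came from separate animals, so p-values measure the spread between these libraries, which may be technical.

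ATAC-seq peaks mark stretches of DNA that are free enough of nucleosomes to be cut. Peaks at start sites are often shared by many cell types, whereas peaks in introns and between genes include enhancers, which are more often specific to a cell type. Neurons hold some of the longest genes of the genome, among them synaptic adhesion molecules and ion channel subunits, in regions with few other genes. L1 elements are mobile repeats that make up much of such gene-poor DNA and are usually kept in closed chromatin.

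Few opened peaks lay at a promoter, and 25 of them overlapped a window of 250 bases before to 50 bases after a RefSeq start site. The 4 promoters shown are examples with a peak that ends before the start site, chosen after their values were seen. They belong to the non-coding genes A830036E02Rik, A930002C04Rik and Gm41340, and to Vegfd, a growth factor of lymphatic vessels. That of Gm41340 lies in the highest opened peak assigned to a potassium channel gene, Kcnq3. The 250 bases before each start site are printed 5′ to 3′ on the gene's strand (RefSeq, GRCm38.p6), with the bases inside the opened peak in capitals.
A830036E02Rik (chr11:99416993-99417242, + strand): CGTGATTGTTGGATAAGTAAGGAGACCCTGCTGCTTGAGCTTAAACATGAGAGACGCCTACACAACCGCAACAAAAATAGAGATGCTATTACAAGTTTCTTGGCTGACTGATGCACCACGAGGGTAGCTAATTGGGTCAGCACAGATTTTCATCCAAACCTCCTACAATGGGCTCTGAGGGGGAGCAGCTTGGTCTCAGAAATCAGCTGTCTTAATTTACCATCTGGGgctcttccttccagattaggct
A930002C04Rik (chr13:47148671-47148920, - strand): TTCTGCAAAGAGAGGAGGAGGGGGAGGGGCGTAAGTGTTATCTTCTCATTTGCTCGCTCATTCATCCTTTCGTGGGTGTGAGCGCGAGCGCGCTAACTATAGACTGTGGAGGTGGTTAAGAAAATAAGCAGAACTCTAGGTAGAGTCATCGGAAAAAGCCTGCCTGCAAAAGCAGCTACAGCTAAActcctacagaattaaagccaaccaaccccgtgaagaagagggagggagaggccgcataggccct
Vegfd (chrX:164373272-164373521, + strand): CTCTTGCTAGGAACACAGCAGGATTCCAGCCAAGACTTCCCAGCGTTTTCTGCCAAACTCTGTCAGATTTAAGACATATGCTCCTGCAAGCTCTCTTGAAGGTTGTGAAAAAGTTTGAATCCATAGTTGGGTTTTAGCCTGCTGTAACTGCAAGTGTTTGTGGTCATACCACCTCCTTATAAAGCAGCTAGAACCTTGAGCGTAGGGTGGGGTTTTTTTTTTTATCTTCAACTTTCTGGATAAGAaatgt
Gm41340 (chr15:66353978-66354227, + strand): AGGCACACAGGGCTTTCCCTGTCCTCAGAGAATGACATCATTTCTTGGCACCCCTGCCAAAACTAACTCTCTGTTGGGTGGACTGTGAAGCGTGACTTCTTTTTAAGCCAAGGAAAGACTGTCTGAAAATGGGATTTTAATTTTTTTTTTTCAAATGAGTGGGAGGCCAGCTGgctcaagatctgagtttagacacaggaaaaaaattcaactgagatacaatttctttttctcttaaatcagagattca

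The peak at A830036E02Rik (chr11:99416956-99417220) held 10.76 and 15.81 normalized tags in WT, against 41.18 and 31.75 in SgshKO. The peak at A930002C04Rik (chr13:47148735-47148968) held 23.79 and 19.77 in WT and 55.84 and 54.6 in SgshKO. Vegfd (chrX:164373240-164373516) had 5.66 and 6.21 in WT and 20.24 and 13.33 in SgshKO. In each of these promoters both SgshKO libraries were above both WT libraries, as the rule requires. The Gm41340 peak (chr15:66353901-66354150), whose nearest gene in the deposited table is Kcnq3, had 12.46 and 10.17 in WT, against 41.18 and 52.7 in SgshKO. The capitals held 46.5%, 48.9%, 42.9% and 44.5% G and C in the order printed.

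The 25 promoter windows with an opened peak had a median G and C content of 42.0%, from 33.7% to 56.3%. The median was 52.7% in all 32851 windows, 62.0% in the 13354 windows with any NeuN+ peak and 67.3% in the 486 windows with a peak of the mirrored, closed set described below. The median number of CpG dinucleotides per window was 2, 7, 22 and 25 in the same sets. Searched on both strands, TGANTCA, the AP-1 site, was found in 5 of the 25 windows, in 7.8% of all windows and in 4.5% of those with any NeuN+ peak. The E-box CACGTG was found in 3 windows (12.0%, against 7.2% of all and 10.1% of those with any NeuN+ peak). The proneural E-boxes CAGATG and CAGCTG were found in 10 and 9 windows (17.2% and 16.3% of all, 11.3% and 15.4% of those with any NeuN+ peak). TTGGCA, part of the NFI motif, was found in 8 (32.0%, against 14.1% and 11.2%). The 2 proneural E-boxes differ in letters and cannot match at the same position. These matches describe the letters of 25 windows and not binding, and the rest of the opened peaks could not be searched because no genome sequence was used.

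One opened peak covered a microRNA gene whole. The hairpin of Mir6343 (chr1:76509560-76509643, + strand, GRCm38.p6) is shown with its mature sequence in capitals, and the mature sequence is repeated with its seed, bases 2 to 8, in capitals.
Mir6343 hairpin: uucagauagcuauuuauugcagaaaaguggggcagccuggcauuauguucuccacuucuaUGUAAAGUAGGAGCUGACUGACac
mmu-miR-6343: uGUAAAGUaggagcugacugac
The peak over it (chr1:76509554-76509800) held 6.23 and 9.04 normalized tags in WT and 18.15 and 22.86 in SgshKO. It was annotated to the end of a transcript, 117 bp from the nearest start site.

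The opened peaks were low in WT nuclei and moderate in SgshKO nuclei. Their median was 5.1 and 5.08 normalized tags in the WT libraries, or 9 reads in each. It was 16.05 and 15.87 in the SgshKO libraries, or 23 and 25 reads. Only 1 opened peak had no read in either WT library, so nearly all had at least 1 WT read. Whether a peak was called in WT alone is not in the tables used here, which list peaks merged over genotypes. The median ratio of the lower SgshKO to the higher WT value was 2.52, and 1369 peaks (49.64%) had a ratio under 2.5. A ratio of 3 or more was found in 817 and of 5 or more in 146. The mean SgshKO value was under 20 in 1904 peaks (69.04%), at least 50 in 54 and at least 100 in 4. The peaks just inside the minimum of 10, such as one nearest Ccdc190 (2.83 and 1.13 in WT, 10.47 and 10.16 in SgshKO), did not stand apart from those just outside it, such as one nearest Lgsn (3.4 and 4.52 in WT, 9.77 and 15.87 in SgshKO). The same was true of the ratio: a peak nearest Chd3 just inside it had 3.97 and 5.08 in WT and 13.26 and 10.16 in SgshKO, and one nearest Lrrc4c just outside had 20.96 and 16.38 in WT and 46.77 and 41.9 in SgshKO.

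**Figure D1:**
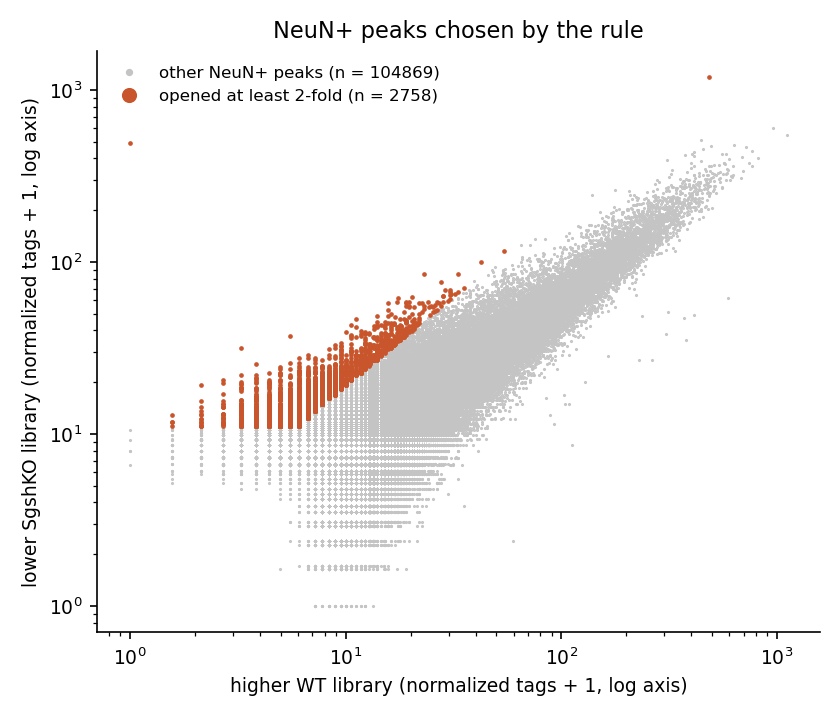
Each point is 1 of the 107627 NeuN+ peaks, with the higher WT library on the x axis and the lower SgshKO library on the y axis, both as normalized tags + 1 on log axes. The 2758 opened peaks (orange) form the upper left edge of one cloud, except for 2 points far above it, the peaks nearest Col19a1 (0 in both WT libraries) and Pisd-ps3 (at least 1185.2 in SgshKO).

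In a limma fit over the whole NeuN+ table, 29.8% of peaks were called at an adjusted p under 0.05, 10.2% as higher and 19.6% as lower in SgshKO. All 2758 opened peaks were among those called higher, and since the rule used the same contrast nothing is read from this count. The calls depended on the tool. DESeq2 called 1618 of the 2758 (58.67%) higher, and 2671 peaks higher and 2229 lower in all, while edgeR with TMM normalization on the recovered reads gave the opposite balance over all peaks, 17045 higher and 12416 lower against 11008 and 21097 by limma. Peaks took up 26.7% and 25.9% of the WT and 21.5% and 21.2% of the SgshKO NeuN+ tags, and library totals ranged from 14326703 to 17706971 tags. The part of this difference in the choice of peaks was not tested. Scaling to the tags in peaks moved the median log2 change of all NeuN+ peaks from -0.23 to 0.05, median-of-ratios factors moved it to -0.03 and quantile normalization to -0.08. The rule then chose 5714, 4679 and 3521 peaks, and each of these sets held all 2758 peaks described here. Scaling to tags in peaks and median-of-ratios factors lower both WT libraries and raise both SgshKO libraries by a single factor each. Those sets therefore had to hold all 2758, and nothing is read from it. Applied with WT and SgshKO exchanged, the rule chose 1982 closed peaks (1.842%), which serve as a comparison set.

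Most opened peaks lay far from start sites, between genes or in introns. Between genes lay 1464 (53.08%), against 27.41% of all NeuN+ peaks and 16.7% of the closed peaks. Introns held 1186 (43.0%), against 46.28% and 35.67%. A promoter annotation was given to 41 (1.49%), against 15.24% and 28%, and 54 (1.96%) lay within 1000 bp of a start site, against 21.74% and 40.57%. The median distance to the nearest start site was 59090 bp, against 13221 bp for all peaks and 3232 bp for closed peaks, and 36.91% of opened peaks were more than 100000 bp away, against 12.39% and 4.79%. None of the opened peaks was annotated to a CpG island or a 5' UTR, to which 3505 and 1148 of all NeuN+ peaks were annotated. Width did not set them apart, with a median of 247 bp against 246 bp. The authors' Peak Score was 1000 for 74.4% of opened, 51.89% of all and 77.8% of closed peaks.

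The share of peaks that were opened fell in steps with gene density. Among the 861 NeuN+ peaks with no protein-coding gene within 500000 bp, 134 (15.56%) were opened. The share was 5.77% with 1 to 5 such genes, 3.03% with 6 to 10, 1.55% with 11 to 20 and 0.53% with more than 20. The closed share was lowest with no gene, at 0.35%, and highest with more than 20, at 2.37%. Among peaks more than 1000 bp from a start site, called distal here, the opened share went from 15.34% to 0.7% over the same steps. The order of the first and last step was kept under each of the 12 other settings of the rule, where the share opened ranged from 4.07% to 28.34% with no gene nearby and from 0.13% to 1.44% with more than 20. Each of these sets held all the opened peaks or was a part of them, so the settings are not independent. Over chromosomes the share ran from 1.39% on chromosome 11 to 3.68% on chromosome 3, and was 2.98% on the X chromosome.

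**Figure D2:**
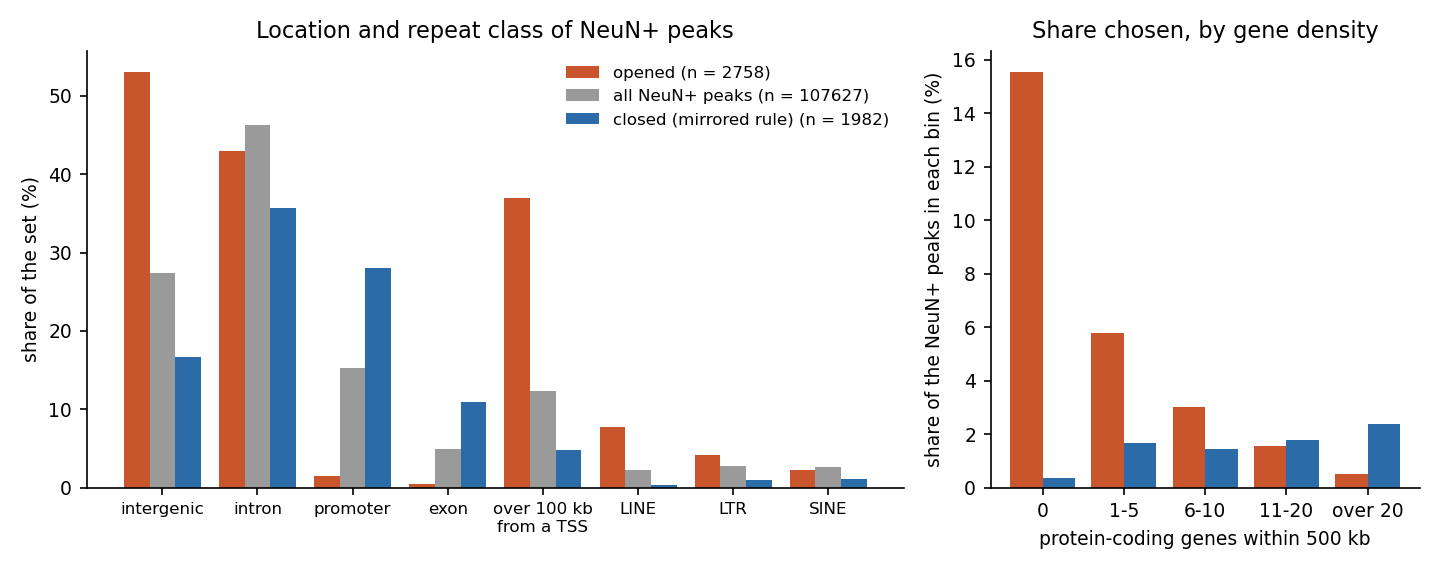
Left, the share (%) of opened, all and closed NeuN+ peaks in each annotation, distance and repeat class. Right, the share (%) of NeuN+ peaks that were opened (orange) or closed (blue) by how many protein-coding genes lie within 500000 bp, where opened peaks fall from 15.56% to 0.53% and closed peaks reach 2.37% in the densest bin.

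The same order was present in the changes of distal NeuN+ peaks as a whole, which include those the rule chose. Their median log2 change fell from 0.76 with no gene within 500000 bp to 0.22, 0.01, -0.17 and -0.38 in the denser bins. It ran from 1.03 to -0.10 scaled to tags in peaks, from 0.96 to -0.18 by median of ratios and from 0.85 to -0.26 by quantiles. Scaling to tags in peaks or by median of ratios uses a single factor per library and shifts all bins nearly alike. The order under these scalings was thus close to fixed in advance. Distal Olig2+ peaks had medians of -0.14 with no gene and -0.03 with more than 20, and distal microglia peaks -0.28 and -0.07. Their medians were thus not highest in gene-poor DNA, although calls were more frequent there in both directions in Olig2+ nuclei: 12.13% of the 239 peaks with no gene nearby were called higher and 13.81% lower, against 7.5% and 10.23% with more than 20. The difference between sorts was not tested.

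L1 sequence was annotated at 170 opened peaks (6.16%), against 1.56% of all NeuN+ peaks and 0.25% of the closed ones. Among peaks between genes or in introns alone, which hold nearly all the L1 annotations, the shares were 6.42%, 2.12% and 0.48%. Of these 170, 110 carried an L1M name, 36 an Lx name and 10 a name starting with L1Md or L1MD. That last group joins the young mouse L1Md elements with the separate L1MD families, such as the L1MD1 element nearest Sema6d, so it does not count young elements. L1M names were also the most common among all 1680 NeuN+ peaks in L1 (908, with 569 Lx and 83 L1Md or L1MD), so the lead of L1M names is mostly that of the whole table. The largest single counts were 12 for L1M5 and 10 for Lx8. LTR elements were annotated at 4.24% of opened and 2.8% of all peaks, and SINEs at 2.28% and 2.64%. Any repeat class was annotated at 461 opened peaks (16.72%), against 9.65% of all. The sources used here do not say how reads that map to several copies were handled, which limits the reading of peaks in young repeats.

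Opened peaks in introns lay in long genes. A host gene could be matched from the transcript in the annotation for 1182 of 1186 intronic peaks, and 51.95% of these lay in genes longer than 200000 bp, against 29.87% of all intronic NeuN+ peaks. The hosts with the most were Csmd1, a large membrane protein with complement-control domains (9 of its 84 intronic peaks), Agbl4, a carboxypeptidase that trims tubulin (8 of 28), Cntnap2, a neurexin-family adhesion protein of axons (7 of 17), and Macrod2 (7 of 34). Nkain2, Lrrc4c, the neuregulin gene Nrg3 and the receptor phosphatase gene Ptprd held 6 each, of 19, 24, 24 and 41. Dmd, which encodes dystrophin, held 4 of only 7. No intronic peak of Csmd1, Agbl4, Cntnap2, Macrod2, Nkain2, Lrrc4c, Nrg3 or Dmd was closed, and 1 of Ptprd was. Closed peaks were rare in introns in general (707 of 49810), so these counts are too small to set the named genes apart. In all, 890 host genes held an opened peak and 65 held 3 or more.

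By nearest start site the opened peaks fell to 2086 genes, of which 1622 had 1 and 12 had at least 5. Lrrc4c, which encodes a ligand of netrin-G at synapses, had the most, 10 of its 40 peaks, spread over chr2:95891782-99170773. In these 10 peaks the WT values ran from 1.13 to 10.76 and the SgshKO values from 10.79 to 32.11. Of its 30 other peaks 25 were above 0 in log2 change, with a median of 0.53. Its strongest peak within 1000 bp of a start site had 37.95 and 44.62 in WT, against 30.71 and 34.28 in SgshKO. The peaks nearest Lrrc4c were thus mostly higher in SgshKO while its strongest start-site peak was not. Cntnap2 had 8 of 25 peaks, with 1.7 to 8.5 in WT and 11.17 to 25.4 in SgshKO. Its strongest start-site peak had 46.45 and 49.7 against 48.86 and 62.22. Ptprd had 7 of 47, with 0.57 to 14.12 against 10.16 to 34.92, and its strongest start-site peak had 93.46 and 97.7 against 48.16 and 47.62. At Ptprd this start-site peak was lower in both SgshKO libraries while the opened peaks were higher by the rule. Mir3106, which lies inside Csmd1, was nearest to 7 of 44. Bend5 was nearest to 6 of 21, and these opened peaks lie in introns of Agbl4.

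**Figure D3:**
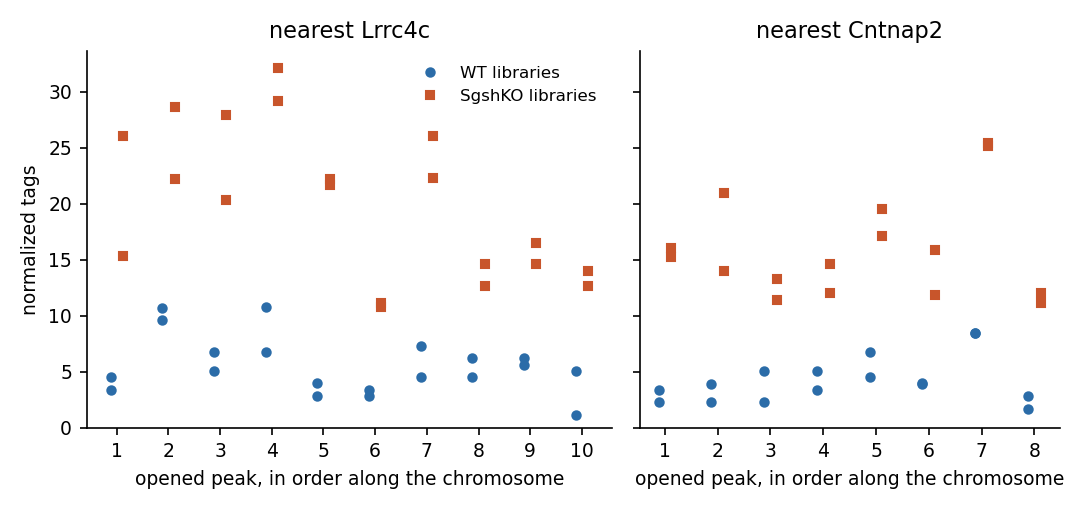
Normalized tags of the opened NeuN+ peaks nearest Lrrc4c (10 peaks) and Cntnap2 (8 peaks), in order along the chromosome, with both WT (blue circles) and both SgshKO libraries (orange squares). The rule set the gap between genotypes, and the WT values stay at or under 10.76 while the SgshKO values run up to 32.11.

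Most opened peaks had no other opened peak close by. Another opened peak lay within 100000 bp of 883 (32.02%, 95% Wilson interval 30.3% to 33.78%, counting error only), compared with 42.89% of the closed peaks with another closed peak. Neighbours come in groups, so the 883 are not independent, as the interval assumes. The closed set is smaller and lies in DNA with more genes (median of 15 protein-coding genes within 500000 bp, against 5). The same share was not computed for NeuN+ peaks in general, so clustering has no baseline here. Chained at that distance they formed 310 pairs, 61 groups of 3, 15 of 4 and 4 of 5, and 1875 stood alone. The densest group of 5 (chr13:6127345-6260780), nearest Klf6 and Pitrm1, held 5 of the 8 NeuN+ peaks in its 133436 bp, with 1.13 to 6.23 in WT and 10.16 to 22.22 in SgshKO. A group nearest F13a1 and Ly86 (chr13:37034737-37290958) held 5 of 12 peaks, and its other peaks had a median log2 change of 0.73. In groups nearest Cdc42ep4, D11Wsu47e and Sdk2 (chr11:113690627-113948990, 5 of 23) and nearest Ppp2r2a, Pnma2, Bnip3l and Ebf2 (chr14:66931864-67198115, 5 of 28) the other peaks had medians of -0.48 and 0.08. The peaks between the opened ones therefore did not share 1 direction across these 4 groups. Among groups of 4, those nearest Pisd-ps3, nearest Spag11a and Spag11b, which encode epididymal peptides, and nearest Atp10a and Ube3a consisted of opened peaks only.

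Distal peaks near an opened peak leaned the same way over a short range. Those not chosen but within 5000 bp of an opened peak had a median log2 change of 0.19 (n = 1442), with 61.17% above 0. The median was 0.06 at 5000 to 20000 bp, -0.01 at 20000 to 100000 bp, -0.11 at 100000 to 500000 bp and -0.25 beyond. Peaks within 1000 bp of a start site had medians of -0.47 to -0.55 at every one of these distances. Start-site peaks beside opened peaks were thus mostly lower in SgshKO, as elsewhere, although 20.25% of those within 5000 bp were above 0, against 13.71% beyond 500000 bp. These values come from the libraries the rule used, and share their gene-poor surroundings with the opened peaks.

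The largest ratios belonged mostly to peaks with little WT signal. The peak nearest Col19a1 (chr1:24613018-24613218, between genes) had 0 reads in both WT libraries and 488.6 and 513.64 normalized tags in SgshKO, or 700 and 809 reads. Against the limit that 3 reads allow in a WT library (1.7 normalized tags), the lower SgshKO library was at least 287-fold higher. RefSeq places the pseudogenes Gm10222 and Gm10925 on either side of it (chr1:24612404-24612700 and chr1:24613971-24614651). How reads that match several places were handled is not given, which limits the reading of this peak. A peak nearest the olfactory receptor gene Olfr344 had 1.7 and 2.26 in WT and 30.71 and 38.09 in SgshKO. One in an L1ME2z element in intron 1 of Gm829 had 0.57 and 1.13 against 18.15 and 18.41, and one in an L1MD1 element nearest Sema6d, which encodes a guidance cue, had 1.7 and 1.13 against 19.54 and 22.86. The peak nearest Lrrtm4, a synaptic organizer gene 842802 bp away, had 1.7 and 1.13 against 18.85 and 19.05. In each of these WT libraries the value rests on at most 4 reads, so the ratios themselves are imprecise. Peaks nearest Mrpl16, 1700123O21Rik and Thsd4 completed the 8 largest, with SgshKO values of 10.79 to 12.06.

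Of the 5 opened peaks with the highest SgshKO signal, 2 lay on an unplaced contig and 1 in a simple repeat. The highest opened peak covered the start of Pisd-ps3, a pseudogene on the unplaced contig JH584304 (59530 to 59883), with 438.43 and 484.55 in WT and 1185.2 and 1218.38 in SgshKO. Of the 24 peaks on that contig 4 were opened, and the other 20 had log2 changes from -1.41 to 1.18 with a median of 0.01. The contig as a whole was thus not higher. The peak in intron 1 of Lims1 (chr10:58383403-58383660), annotated as a CTG repeat, had 41.35 and 39.53 in WT and 106.1 and 99.05 in SgshKO. A peak between genes nearest 4930503O07Rik (chr1:194049742-194050205) had 18.69 and 22.03 against 95.63 and 84.44. At start sites, the highest after those of Pisd-ps3 were Otub2, a deubiquitinase gene (27.19 and 28.8 against 63.52 and 58.41), and A930002C04Rik.

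Excitatory neuron genes and lysosomal genes were absent from the nearest genes of opened peaks, and of the inhibitory neuron genes only Npy and Vip were present. None of 188 NeuN+ peaks nearest 12 excitatory neuron genes and none of 128 nearest 31 lysosomal genes was opened, against 2.563% of all peaks. Among 11 inhibitory neuron genes 3 of 37 peaks (8.11%) were opened, nearest the neuropeptide genes Npy and Vip. The highest of them (chr6:49637719-49637953, between genes, nearest Npy) had 10.76 and 12.99 in WT and 29.32 and 40.63 in SgshKO.

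Several families of membrane proteins had a larger share of opened peaks than the whole table. GABA receptor genes had 8 of 102 peaks (7.84%), with the highest nearest Gabra2 (7.93 and 12.99 against 30.71 and 33.02). Cadherin genes had 17 of 248 (6.85%), with the highest nearest Cdh26 (27.76 and 29.37 against 65.61 and 73.65), and protocadherin genes 9 of 162 (5.56%), with the highest nearest Pcdh20 (5.66 and 5.65 against 27.92 and 28.57). Glutamate receptor genes had 19 of 408 (4.66%), led by one nearest the metabotropic receptor gene Grm7 (28.89 and 29.93 against 66.31 and 64.13). These shares are counts over nearest genes and no enrichment was tested. They were not matched for gene density, and of all NeuN+ peaks with 1 to 5 protein-coding genes within 500000 bp 5.77% were opened. The remaining families were near the share of all peaks or too few to read. Potassium channel genes had 31 of 1084 (2.86%), ephrins and their receptors 7 of 227 (3.08%), olfactory receptors 5 of 128 (3.91%), immediate-early genes 4 of 210 (1.9%) and semaphorins 3 of 184 (1.63%), while vomeronasal receptors had 2 of 17 and exocrine peptides 1 of 2, a peak in an Lx5c element nearest Esp15 (1.13 and 2.26 against 29.32 and 19.05). The median log2 change over all peaks was 0.31 for GABA receptor genes, 0.13 for cadherins, -0.08 for protocadherins and -0.32 for glutamate receptors, beside -0.23 for all NeuN+ peaks and -0.39 for excitatory neuron genes. Glutamate receptor genes also had 13 closed peaks (3.19%, against 1.842% of all), so their peaks did not share 1 direction.

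The NeuN+ sort carried the start-site peaks of neurons. All 6 excitatory and all 4 pan-neuronal markers had a NeuN+ peak within 1000 bp of the start, as did 4 of 6 inhibitory markers, whereas 7 of 8 microglia markers and all 4 endothelial markers had none. Of 12 oligodendrocyte markers, Mog, Mag, Mobp, Ermn, Olig2 and Sox10 had no such peak in the NeuN+ table, and of 7 astrocyte markers Aqp4, Gfap, Slc1a3, Aldh1l1 and Gja1 had none. Summed start-site tags were lower in both SgshKO libraries for excitatory neurons (493.4 and 441.1 in WT, 264.5 and 253.3 in SgshKO) and for oligodendrocytes (246.4 and 209 against 117.3 and 125.1). Pan-neuronal markers (701.8 and 667 against 376.2 and 379.7) and inhibitory markers (46.5 and 43.5 against 29.3 and 34.3) were lower as well, as was the 1 precursor marker with a peak (21 and 20.3 against 11.2 and 17.1). So were astrocytes (199.4 and 183.6 against 130.5 and 132.7) and for the 1 microglia marker with peaks (54.4 and 48 against 34.2 and 32.4). Start-site peaks of every measured cell type were thus lower in SgshKO, and their part in the choice of peaks was not tested. No start-site peak of any marker was opened, and of all peaks nearest a marker 3 were. They were 2 of 46 nearest astrocyte markers (4.35%, Aqp4 and Slc1a2) and 1 of 11 nearest endothelial markers (Pecam1), with none of 93 for excitatory, 15 for inhibitory and 216 for pan-neuronal markers and none of 107 for oligodendrocytes, 14 for their precursors and 19 for microglia. In bulk libraries like these, fewer cells of a type and less signal per cell cannot be told apart.

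The Olig2+ and microglia tables were read at the same places, by an overlap of at least 1 bp. Only 62 opened peaks (2.25%) overlapped a peak of the Olig2+ table and 73 (2.65%) one of the microglia table, 14 of them both. Of all NeuN+ peaks 31.69% and 27.89% overlapped, and of the closed peaks 50.55% and 45.86%. The remaining 2637 opened peaks (95.61%) had no peak in either table, against 59.9% of all NeuN+ peaks and 38.55% of the closed peaks. The accessibility of these 2637 places in the other sorts was not measured by these files. Among distal peaks alone, 1.89% and 2.37% of opened peaks overlapped, against 21.81% and 16.77% of all. The gap was also present between peaks of like signal. Among distal peaks with a mean of 20 to 50 tags in SgshKO, 2.28% of opened and 26.73% of other peaks overlapped an Olig2+ peak, and with 50 or more the shares were 8.0% (4 of 50) and 48.61%. With peaks matched on the mean of all 4 libraries, at 5 to 10 tags 1.65% of opened and 15.85% of other distal peaks overlapped an Olig2+ peak, and 2.36% and 11.27% a microglia peak.

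**Figure D4:**
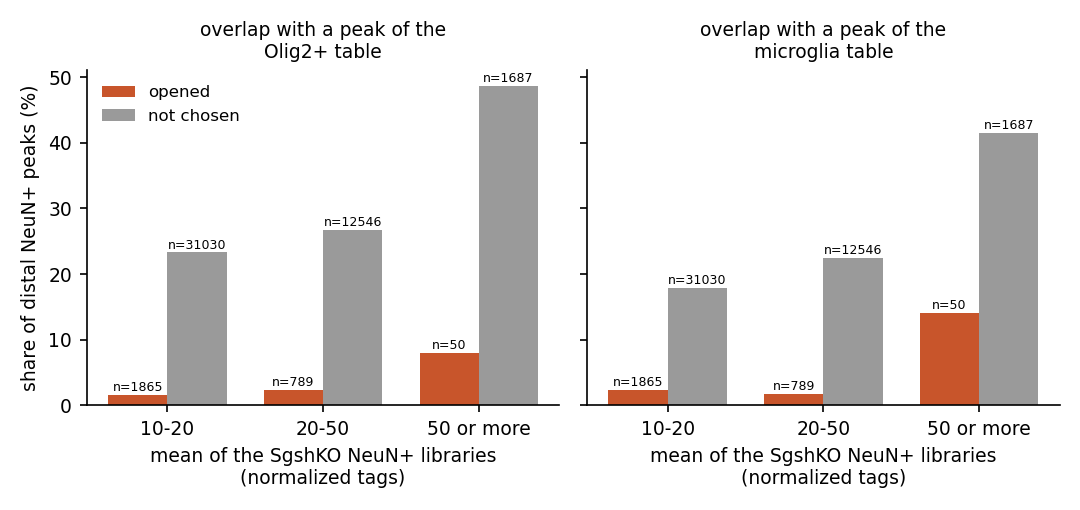
Share (%) of distal NeuN+ peaks that overlapped a peak of the Olig2+ table (left) or the microglia table (right) by at least 1 bp, in 3 ranges of the mean SgshKO NeuN+ value, with the number of peaks over each bar. Opened peaks (orange) stay at 14.0% or less in all 6 pairs, and the other peaks (grey) lie between 17.85% and 48.61%.

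Where an Olig2+ peak was present it more often leaned the same way than the other. The 62 opened peaks overlapped 63 Olig2+ peaks, of which limma called 15 higher (23.81%) and 2 lower (3.17%) in SgshKO at an adjusted p under 0.05 over the whole table. Over all Olig2+ peaks 19.8% were called, 8.17% higher and 11.7% lower. Both SgshKO libraries were above both WT libraries at 31 (49.21%, against 26.4% of all Olig2+ peaks) and below both at 9 (14.29%, against 34.9%). The median log2 change was 0.27, beside -0.07 for all Olig2+ peaks. Without the 5 peaks nearest Col19a1 and Pisd-ps3 there were 10 called higher and 2 lower of 58, with a median of 0.25. The count called higher was 10 without WT replicate 1, 9 without WT replicate 2 and 6 by DESeq2, which gave an adjusted p for 34 of the 63. Over all Olig2+ peaks 3.78%, 3.88% and 6.04% were called higher in these settings, so the count fell as that of the whole table did without either WT library. edgeR called 17 higher and 2 lower. edgeR also turned the balance over the whole Olig2+ table, to 9566 higher and 8294 lower from 6743 and 9627, as did median-of-ratios factors (8832 and 7802). Olig2+ peaks within 10000 bp of an opened peak but not overlapping one were called at the rate of the whole table, 8.61% higher and 11.81% lower of 1660.

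Individual Olig2+ places differed in size of change. At the place nearest Col19a1 the Olig2+ peak had 0 reads in both WT libraries and 731.04 and 692.63 normalized tags in SgshKO, at least 445-fold higher than the limit of 3 reads (limma adjusted p = 2.74e-24). The peak at the start of Pisd-ps3 went from 352.7 and 352.83 to 680.63 and 714.56, a log2 change of 0.98 ± 0.06 (SE, limma adjusted p = 7.46e-13). In intron 8 of Cfap46, which encodes a protein of cilia and flagella, the Olig2+ peak (chr7:139676523-139676725) rose from 0.52 and 1.02 to 23.36 and 25.26, a log2 change of 3.85 ± 0.37 (limma adjusted p = 1.03e-08), and the NeuN+ peak had 7.36 and 9.6 against 30.71 and 29.21. These 3 places thus had higher signal in SgshKO in both nuclei sorts. The Col19a1 place lies between pseudogenes and Pisd-ps3 is a pseudogene on an unplaced contig. The NeuN+ peak at Cfap46 is annotated as CT-rich low-complexity sequence. Handling of reads that match several places is not given, which limits the reading of all 3. The other peaks called higher lay nearest Pisd-ps3 (3 more), Opalin, Dpp6, Fmn2, Gmpr, Mir344c, Tex14, Otub2, 1700017L05Rik and Slc44a1, with log2 changes of 0.34 to 1.40. At Opalin, a myelin gene, the Olig2+ peak went from 83.51 and 76.7 to 141.41 and 118.32 (limma adjusted p = 0.000319), and the NeuN+ peak, which overlaps it in part, had 2.27 and 0.56 against 10.47 and 13.97. At Otub2 the call (0.69 ± 0.21, limma adjusted p = 0.0221) was lost without either WT library, without SgshKO replicate 2 and by DESeq2 (adjusted p = 0.0933, 0.136, 0.135 and 0.143).

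At 2 places the Olig2+ peak was lower where the NeuN+ peak was higher. Nearest Kcns1, which encodes a modifier subunit of potassium channels, the Olig2+ peak (chr2:164137873-164138104) fell from 28.53 and 37.33 to 10.45 and 8.64, a log2 change of -1.68 ± 0.26 (limma adjusted p = 3.12e-05). The NeuN+ peak there, which shares less than 50% of its length with it, had 11.33 and 11.86 in WT and 27.22 and 33.02 in SgshKO. Nearest Atp10a, a lipid flippase gene, the Olig2+ peak went from 23.34 and 19.43 to 9.84 and 13.29 (-0.84 ± 0.27, limma adjusted p = 0.0296) and the NeuN+ peak from 31.15 and 25.98 to 64.22 and 88.25. The Atp10a call was lost after quantile normalization and without either WT library or SgshKO replicate 1 (adjusted p = 0.0533, 0.216, 0.0835 and 0.142).

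Microglia peaks at the opened places were called about as often in one direction as in the other. The 73 opened peaks overlapped 77 microglia peaks, of which limma called 3 higher (3.9%) and 3 lower (3.9%), beside 7.37% of the whole table in either direction, 5.05% higher and 2.33% lower. Both SgshKO libraries were above both WT libraries at 23 (29.87%, against 23% of all) and below at 20 (25.97%, against 28.1%), and the median log2 change was -0.09, beside -0.08 for all microglia peaks. At an unadjusted p under 0.05 there were 20 of 77. Without WT replicate 1 the calls were 1 higher and 0 lower, without WT replicate 2 none in either direction, without SgshKO replicate 1 7 and 15, and without SgshKO replicate 2 15 and 6, so these counts depend on single libraries. The whole microglia table moved in the same way, with 6.44% called higher and 14.1% lower without SgshKO replicate 1 and 12.87% and 5.15% without SgshKO replicate 2. edgeR called 8 higher and 7 lower, and 10.22% and 5.25% of the whole table. Scaled to the tags in peaks, the whole microglia table turned to 5103 higher and 9419 lower from 4631 and 2134, and the places to 4 and 9.

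The microglia peak in intron 1 of Lncpint, a long non-coding RNA gene, rose from 12.1 and 11.01 to 65.8 and 46.42 (log2 change 2.17 ± 0.41, limma adjusted p = 0.000652). Those nearest Cyfip2, an actin regulator gene, and Scand1 changed by 1.32 ± 0.41 and 1.16 ± 0.37 (limma adjusted p = 0.0386 and 0.0445). At Lncpint, Cyfip2 and Scand1 the NeuN+ and microglia peaks share less than 50% of the length of the longer peak. The peak nearest Arl4c, a small GTPase gene (chr1:88658366-88658588), fell from 15.56 and 11.01 to 0 and 2.79, a log2 change of -2.86 ± 0.59 (limma adjusted p = 0.00182). Those nearest the GTPase exchange factor gene Rapgef5 and the phosphatase gene Ppp2ca changed by -2.01 ± 0.50 and -1.82 ± 0.55 (limma adjusted p = 0.00897 and 0.0339). The Ppp2ca value moved with single libraries, to -0.679 without SgshKO replicate 2 (limma adjusted p = 0.31) and -2.969 without SgshKO replicate 1, and the Arl4c value was -1.896 without SgshKO replicate 1. In each group of 3 both SgshKO libraries lay outside the WT range. None of the 6 stayed called without WT replicate 2, and only Lncpint did without WT replicate 1. At the start of Pisd-ps3 the microglia peak ran against both nuclei sorts, with 1171.87 and 740.41 in WT and 554.08 and 582.08 in SgshKO (-0.71 ± 0.25, limma adjusted p = 0.0685, called by edgeR at 0.0228).

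**Figure D5:**
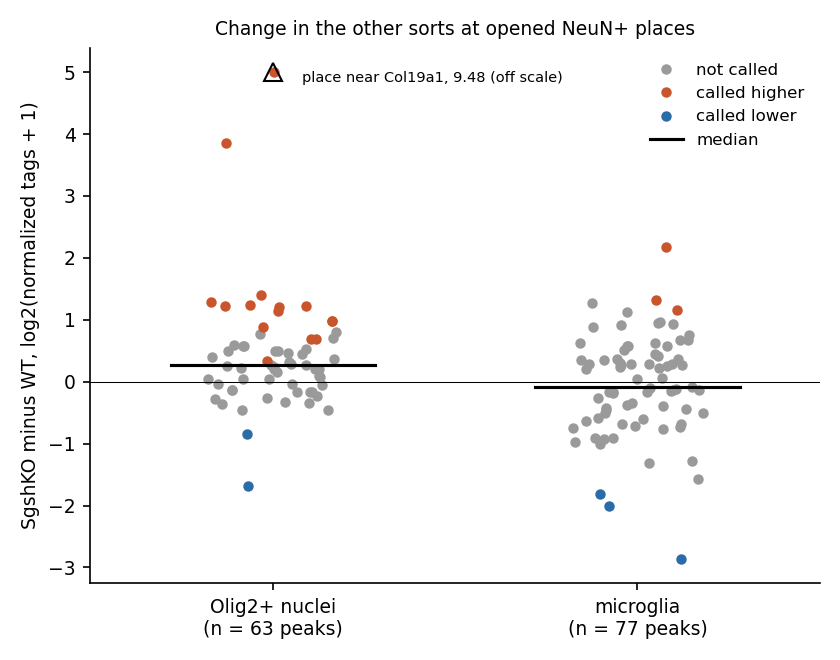
Log2 change (SgshKO minus WT, log2(normalized tags + 1)) of the 63 Olig2+ and 77 microglia peaks that overlap an opened NeuN+ peak, as 1 point per peak with the median as a black line. Called peaks are orange (higher: 15 and 3) or blue (lower: 2 and 3), and the Col19a1 place at 9.48 is drawn at the top of the axis.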

How the data were processed

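ATAC-seq was measured in 12 libraries, 2 per genotype in each of 3 sorts, at 4 months. The authors deposited 1 peak table per sort; per the file headers the signal is tags per peak, scaled to 10000000 tags per library. The deposited Peak Score (a score) was used only as a filter. Bowtie2, HOMER and mm10 are named in the submitters' processing notes; the sources used here do not give duplicate handling or read shifting. Dividing out the scaling gave reads within 0.01 of a whole number for 100% of values. Library totals ran from 10771659 to 19555924 tags.

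Members were found by the rule in the NeuN+ table. Each table was fitted with limma 3.58.1 in R 4.3.3 (lmFit, eBayes with trend, log2(normalized tags + 1), two-sided, no covariate), with p-values adjusted by Benjamini-Hochberg across each whole table and a threshold of 0.05 for calls. Log2 changes understate those of low peaks. edgeR 4.0.16 and DESeq2 1.42.0 on the recovered reads, other pseudocounts, scalings, filters, overlaps, a replicate block and leaving out each library were alternatives. No peak was filtered out. A place counts as shared at 1 bp of overlap. Gene names that had become dates (202 in the NeuN+ table) were restored from Entrez numbers. Gene density, host genes and sequences came from RefSeq tables of GRCm38.p6, the assembly behind mm10. On simulated Olig2+ counts (82577 peaks, 200 changed) the fit recovered 72% of 2-fold and 99% of 4-fold changes and called 6 unchanged peaks, and on simulated microglia counts (91770 peaks, 200 changed) 19% and 90%, with 4. The changed peaks were drawn only from those at or above the median read count, so recovery at lower peaks was not measured.

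The members and all lists were chosen with earlier results of these data known. Peaks were named by rule: the 8 largest ratios (1 per gene), the 5 highest, the 4 highest at start sites, the 5 genes and 4 groups with the most members, the 3 smallest p per direction in each other sort, 3 on either side of each threshold, and the highest per gene list. Other peaks named were chosen after their values were seen. Motif and base composition of the peaks themselves need a genome and were not run; motifs were searched in promoter windows alone.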

Additional observations from a re-analysis of the deposited data

Results flagged for a closer look

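At 5 overlapping places the other sort was called lower in SgshKO while the NeuN+ peak was higher, with every library of each sort on its own side. The NeuN+ direction was set by the choice of peaks, and the difference between sorts was not tested. In Olig2+ nuclei these were the places nearest Kcns1, with a log2 change of -1.68, and nearest Atp10a, with -0.84. In microglia they were the places nearest Arl4c (-2.86), Rapgef5 (-2.01) and Ppp2ca (-1.82, and -0.679 without SgshKO replicate 2). The NeuN+ and other peaks at Kcns1, Rapgef5 and Ppp2ca share less than 50% of the length of the longer peak.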

How the results depend on the processing

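The rule chose 4676 peaks with a minimum of 5 tags, 727 with 20, 6148 with a ratio of 1.5, 817 with 3, 5714 scaled to tags in peaks and 4679 with median-of-ratios factors, against 2758. Leaving out 1 library, which relaxes the rule, gave 4358 to 4841. Another opened peak lay within 50000 bp of 19.8% and within 200000 bp of 49.2%, as the wider distance must give. For the Olig2+ places, the count called higher (15) was 6 by DESeq2, 10 without the places nearest Col19a1 and Pisd-ps3 (chosen after seeing the data) and 9 to 15 when 1 library was left out. The count called lower (2) was 1 by DESeq2, with quantile normalization and at a reciprocal overlap of 50%, and 1 to 2 without 1 library. Their median (0.269) was 0.375 by edgeR, 0.382 by DESeq2, 0.392 by quantiles and 0.202 to 0.329 without 1 library. For the microglia places (3 and 3, median -0.094), edgeR called 8 higher and 7 lower. DESeq2 called 0 lower (6 at an unadjusted p under 0.05), and 1 was lower without the lowest 25% of peaks (median 0.245). Scaling to tags in peaks gave 9 lower, median of ratios 8 higher, quantiles 6 and 6, and a reciprocal overlap of 50% 0 higher (4 at an unadjusted p under 0.05) and 1 lower. Without 1 library the counts ran from 0 to 15 in each direction and the median from -0.165 to 0.117. Without WT replicate 2 limma called 0 of 77, with 1 higher and 6 lower at an unadjusted p under 0.05, and without WT replicate 1 it called 0 lower (5 at an unadjusted p).

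With replicate number as a block, 16 Olig2+ places were called higher and 2 lower, and 8 and 8 microglia places. The numbers were not shown to pair the libraries: the correlation of WT and SgshKO deviations was 0.004 in NeuN+, 0.001 in Olig2+ and 0.042 in microglia tables. Of the named places, the uncalled Olig2+ one nearest Ppp2ca (-0.036) turned to 0.025 by edgeR, 0.027 by DESeq2, 0.032 by median of ratios and, without 1 library, ranged from -0.16 to 0.088 (without WT replicate 2). The second microglia peak there ranged from -1.121 to 0.117 (without WT replicate 1), and that nearest A930002C04Rik from -0.742 to 0.065 (without SgshKO replicate 2). The cause of these moves was not tested, except where fewer libraries or peaks were used. A member's WT value rests on about 9 reads, which limits its ratio.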
